A study of Trichoderma asperellum with 12 samples.

Results

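The genes described here encode protein kinases and the signalling proteins around them in strain TJ01 of the filamentous fungus Trichoderma asperellum. They are the genes whose first KEGG orthology description in the deposited table names a protein kinase (by the words or by the enzyme classes for serine/threonine, dual-specificity and histidine kinases), a guanine nucleotide-binding protein or an adenylate cyclase, with ubiquitin excluded. This gave 174 of 11647 genes: 22 of the MAP kinase cascade, 10 of the G protein and cAMP pathway, 19 two-component histidine kinases and 123 other kinases. The annotation is of unequal strength. The KEGG match had an E-value of 0 in 77 of the 174 genes and an E-value above 1e-30 in 49, and the latter are called weak matches here.

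Mycelium grown from a spore suspension was moved to Burk broth, a nitrogen-poor medium, without dichlorvos (CK, the control) or with 100, 500 or 1000 μg/mL of the organophosphorus insecticide dichlorvos for 24 h. All groups were strain TJ01 in the same broth. RNA-seq was run on 3 libraries of each group, 12 in all, and the values are FPKM (fragment numbers divided by transcript length and by the size of the library). The labels do not say whether the 3 libraries came from separate cultures, so p-values measure only the spread between them. RNA was taken from whole mycelium, in which a change in the share of a hyphal cell type cannot be told apart from a change in RNA per cell.

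Protein kinases pass a signal on by adding phosphate to other proteins. In the MAP kinase cascade a MAPKKK activates a MAPKK, which activates a MAPK, and filamentous fungi usually hold 3 such chains, known from yeast as the pheromone, cell wall integrity and osmotic stress pathways. The cAMP pathway runs from G proteins through adenylate cyclase to protein kinase A (PKA), whose regulatory subunit holds the catalytic subunits inactive until cAMP binds. Two-component histidine kinases pass phosphate through a phosphotransfer protein to response regulators, which in fungi lead to the osmotic stress MAP kinase. The kinases among these act by phosphorylation, which was not measured here. The values below are transcript levels.

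The summed FPKM of all genes was between 895521 and 958261 in each library. Control replicate 1 stood apart from the other libraries. Its log2 values correlated with those of the other controls at r = 0.896 to 0.897, against 0.984 between these and at least 0.970 within each dichlorvos group. Its estimated depth was 0.824 of that of control replicate 2, and the other libraries lay between 0.996 and 1.002. The kinase and signalling genes whose FPKM averaged 1 or more across the 12 libraries numbered 145. Of these, 49 (33.8%) were over 2-fold higher and 7 (4.83%) over 2-fold lower in control replicate 1 than in the mean of the other controls, and among the 8916 genes of the whole table that passed this filter these shares were 30.7% and 9.69%. The results of each comparison are therefore given with all 12 libraries and with 11, without that library. The summed FPKM of 151 ribosomal protein genes was 67423, 51212 and 52847 in the control libraries and 30768 to 45072 in the dichlorvos libraries. The part of these 2 differences in the results below was not tested.

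Genes were tested with limma on log2(FPKM + 1), and a gene was called when its adjusted p was under 0.05 and its fold change exceeded 1 on the log2 scale. On this scale the fold change of a low gene is understated. The kinase and signalling genes made up between 0.879% and 1.38% of the FPKM of a library, and their median level was 18.3 FPKM against 10.7 over all genes. Of the 174 genes, 145 passed the filter and were tested.

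Few of these genes changed under dichlorvos at 100 and 500 μg/mL. At 100 μg/mL, 1 of 145 was called higher, and 4.6% of all genes tested were. None was called lower by limma, with 4 lower at an unadjusted p under 0.05 and 0 by the NOISeq rule of the study, and 0.538% of all genes were called lower. At 500 μg/mL, 2 were upregulated (1.38%, against 10.6% of all genes) and 5 downregulated (3.45%, against 3.48%). At 1000 μg/mL, 17 were upregulated (11.7%, against 19.2% of all genes) and 7 downregulated (4.83%, against 7.81%). Between 1000 and 100 μg/mL, a comparison that does not use the control, 9 were higher (6.21%, against 13% of all genes) and 8 lower (5.52%, against 5.48%). An F-test over the 4 groups called 30 of 145 (20.7%) and 34% of all genes. The median log2 fold change of the 145 genes was -0.048, -0.040 and 0.028 at 100, 500 and 1000 μg/mL, and that of all genes was 0.015, 0.096 and 0.18.

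Without control replicate 1 the counts at 100 μg/mL stayed at 1 higher and 0 lower (9 lower at an unadjusted p under 0.05), with 7.67% and 1.05% of all genes, but the gene called higher was another one, since 0 were called with both sets. The counts in the other comparisons rose. At 500 μg/mL they were 11 higher and 7 lower, with 16.8% and 4.31% of all genes. At 1000 μg/mL they were 30 higher (20.7%) and 9 lower (6.21%), with 25.9% and 7.68% of all genes. For 1000 against 100 μg/mL, where only the shared estimate of the spread differs, they were 13 higher and 10 lower, with 14.6% and 6.46% of all genes. The F-test then called 76 genes (52.4%) and 56.9% of all genes. Of the 17 genes called higher at 1000 μg/mL with 12 libraries, 16 were called with 11, and of the 7 called lower, all 7 were. The plot of shares called sets both sets of counts beside those of all genes.

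**Figure D1:**
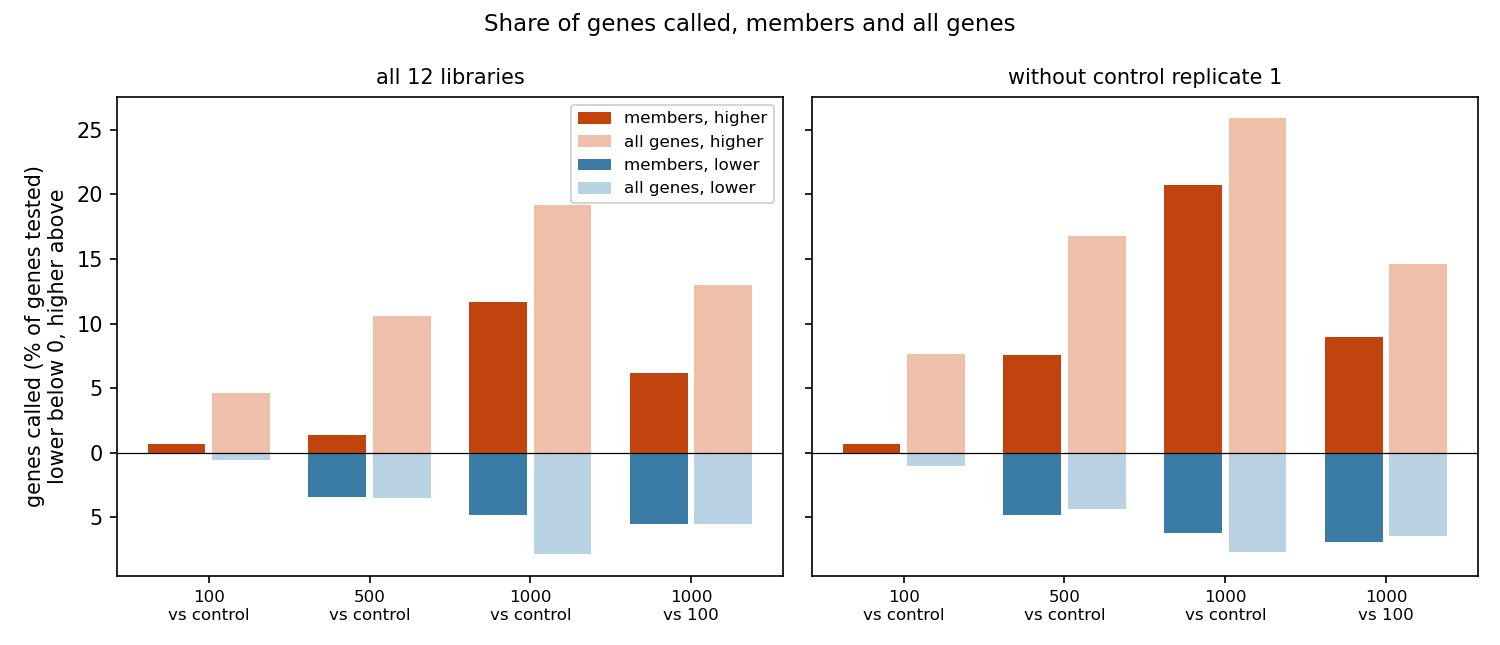
Share of the 145 kinase and signalling genes (dark bars) and of all 8916 genes tested (light bars) called higher (above 0) or lower (below 0) in each comparison, as a percentage of the genes tested, with all 12 libraries (left) and without control replicate 1 (right). At 1000 μg/mL against the control, 11.7% of the kinase and signalling genes and 19.2% of all genes were called higher with 12 libraries.

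The split of higher against lower calls depends on the scaling of the libraries. Centring each library on its median moved the median log2 fold change of all genes at 1000 μg/mL from 0.18 to -0.080. After centring, the calls were 0 higher and 1 lower at 100 μg/mL, 1 and 6 at 500 μg/mL, 6 and 20 at 1000 μg/mL, and 5 and 11 at 1000 against 100 μg/mL. The shares of all genes called under the same centring were 4.13% higher and 1.2% lower at 100 μg/mL, 8.15% and 5.74% at 500 μg/mL, 14.3% and 12.5% at 1000 μg/mL, and 9.76% and 7.97% at 1000 against 100 μg/mL.

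The MAP kinases themselves come first. The table holds 3 of them, and none was called with 12 libraries. jgi_Trias1_194326 is described as MAPK 7 and its closest protein is tmk2 of T. atroviride, the MAP kinase of the cell wall integrity type. It stood at 329, 74.5 and 75.2 FPKM in the control, 238, 192 and 161 at 100, 232, 168 and 151 at 500 and 135, 227 and 204 at 1000 μg/mL. Control replicate 1 was the highest of the 12 libraries, and the other controls were the lowest. All 9 dichlorvos libraries were thus above these 2 controls and below the third. The log2 fold change at 1000 μg/mL was 0.58 ± 0.46 (SE), adjusted p = 0.355 with 12 libraries. With 11 it was 1.29, adjusted p = 0.000802, and the gene was also called higher at 100 μg/mL (1.37, adjusted p = 0.00267) and at 500 μg/mL (1.26, adjusted p = 0.00172). Its rise thus rests on leaving out that library, and between 1000 and 100 μg/mL the gene differed by -0.078, adjusted p = 0.924.

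The MAP kinase described as MAPK 1/3, jgi_Trias1_55764, had the lowest mean of the 3 at 27.5 FPKM. Its values were 53.4, 13.9 and 15.1 FPKM in the control, 23.4, 15.2 and 15.8 at 100, 25.9, 20.7 and 22.3 at 500 and 35.4, 48.8 and 40.5 at 1000 μg/mL. The 1000 μg/mL libraries lay above all those at 100 and 500 μg/mL, and control replicate 1 lay above all of them. It was not called at 1000 μg/mL against the control with 12 libraries (0.84 ± 0.41 (SE), adjusted p = 0.123) but was with 11 (1.45, adjusted p = 0.00012). Against 100 μg/mL it was 1.17, adjusted p = 0.0518 with 12 libraries and 1.17, adjusted p = 0.000408 with 11. The third, jgi_Trias1_452030, is described as a p38 MAP kinase and matches Tmk3, the osmotic stress type known as Hog1 in yeast. It ranged only from 122 to 194 FPKM over the 12 libraries. Its log2 fold change was -0.37, adjusted p = 0.129 at 1000 μg/mL, and the groups overlapped.

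Of the 4 genes described as MAPKK, 3 had a KEGG E-value of 0 and none of these was called in any comparison with 12 libraries. jgi_Trias1_73213, placed in the KEGG entry of yeast Pbs2 (K11227), which activates Hog1, stood at 97, 39.6 and 45.4 FPKM in the control, 63.9, 60.7 and 57.5 at 100, 80.9, 92.6 and 70.4 at 500 and 62.2, 55.9 and 51.3 at 1000 μg/mL. It was highest at 500 μg/mL if control replicate 1 is left aside. Its fold change there was 0.52, adjusted p = 0.221 with 12 libraries, and 0.91, adjusted p = 0.00082 with 11, which passes the p threshold but not the fold threshold. jgi_Trias1_136007, in the entry of yeast Mkk1 and Mkk2 (K08294) of the cell wall integrity chain, ranged from 30.8 to 65.4 FPKM with overlapping groups (-0.089, adjusted p = 0.812 at 1000 μg/mL). jgi_Trias1_22404, in the entry of yeast Ste7 (K11226) of the pheromone chain, was at 75.8, 21.6 and 29.3 FPKM in the control and at 26.4 to 46.2 in all dichlorvos libraries (-0.089, adjusted p = 0.883, and 0.43, adjusted p = 0.15 with 11 libraries).

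The fourth gene described as a MAPKK, jgi_Trias1_259843, is a weak match (E-value 9e-17), and its closest protein is a serine/threonine kinase-like protein of T. atroviride. It was the member of this class that rose. Its values were 14, 21.1 and 35.3 FPKM in the control, 26.6, 22.1 and 46.6 at 100, 32.1, 32.8 and 44.8 at 500 and 78.2, 89.9 and 80.5 at 1000 μg/mL. The 1000 μg/mL libraries lay above all other libraries. At 1000 μg/mL the log2 fold change reached 1.87 ± 0.33 (SE), adjusted p = 0.000741, and 1.57, adjusted p = 0.000711 with 11 libraries. Against 100 μg/mL it was 1.42 ± 0.33 (SE), adjusted p = 0.00701. The call at 1000 μg/mL against the control was kept in all 19 alternative limma fits. The NOISeq rule called 0 of the kinase and signalling genes higher in that comparison.

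Of 15 genes described as MAPKKK, 10 were weak matches. Of the 15, 11 were tested and 4 were called higher at 1000 μg/mL with 12 libraries, beside 19.2% of all genes. The 3 with an E-value of 0 are the yeast Bck1, Ste11 and Ssk2 entries (K11229, K11228 and K11230), which head the cell wall integrity, pheromone and osmotic stress chains. The Bck1-type gene jgi_Trias1_24563 was nearly flat, at 36.3 to 43.6 FPKM in all libraries but control replicate 1, which held 23.5 (0.30, adjusted p = 0.288 at 1000 μg/mL with 12 libraries, 0.074, adjusted p = 0.697 with 11). The Ssk2-type gene jgi_Trias1_156707 was at 20.4, 6.09 and 7.38 FPKM in the control and at 8.81 to 15.2 in the dichlorvos libraries (0.16, adjusted p = 0.771). With 11 libraries it passed the p threshold but not the fold threshold at 500 μg/mL (0.67, adjusted p = 0.0409) and at 1000 μg/mL (0.65, adjusted p = 0.0365).

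The Ste11-type gene jgi_Trias1_151292 declined with the dose. It stood at 57.2, 103 and 103 FPKM in the control, 95.3, 74 and 72 at 100, 75.4, 66 and 63.1 at 500 and 49.2, 41.8 and 54.2 at 1000 μg/mL. The 1000 μg/mL libraries were the lowest of the 12, and no library at 100 or 500 μg/mL reached as low. The log2 fold change was -0.80 ± 0.24 (SE), adjusted p = 0.0181 with 12 libraries, past the p threshold but not the fold threshold. With 11 libraries it was -1.08, adjusted p = 0.0002 and the gene was called lower, as it was after centring with 12 (-1.06). Against 100 μg/mL it was -0.72, adjusted p = 0.0417.

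None of the 4 genes described as MAPKKK that rose at 1000 μg/mL had an E-value of 0, although all 4 are filed under the Ssk2 entry. jgi_Trias1_194352 (E-value 1e-129) had the largest rise. It was at 0, 0.69 and 0.27 FPKM in the control, 1.07, 1.78 and 1.62 at 100, 6.13, 7.22 and 6.27 at 500 and 6.27, 4.37 and 6 at 1000 μg/mL. The gene was near 0 in the control and above every control and 100 μg/mL library at the higher doses. Its log2 fold change was 2.54 ± 0.27 (SE), adjusted p = 2.87e-05 at 500 μg/mL and 2.33 ± 0.27 (SE), adjusted p = 2.63e-05 at 1000 μg/mL. Against 100 μg/mL it was 1.39, adjusted p = 0.00226. These 3 calls held in all 18 alternative limma fits in which the gene was tested. Its mean reached the 1 FPKM filter only through the 500 and 1000 μg/mL libraries, so these calls are not independent of the filter. The NOISeq rule called 0 of the kinase and signalling genes higher at 500 or 1000 μg/mL against the control. That rule also asks for a large absolute difference in FPKM, which a gene at this level can hardly reach. It therefore cannot decide on this rise.

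The remaining 3 are weak matches. jgi_Trias1_67910, the most abundant gene of the class with a mean of 91.7 FPKM, stood at 21.7, 78.7 and 80 FPKM in the control, 57, 83.9 and 108 at 100, 75.9, 87.3 and 106 at 500 and 166, 145 and 89.9 at 1000 μg/mL. Control replicate 1 was far below the other controls. The rise of 1.31 ± 0.44 (SE), adjusted p = 0.0321 was lost without that library (0.70, adjusted p = 0.0533). jgi_Trias1_93630 rose by 1.20 ± 0.29 (SE), adjusted p = 0.00584, from 6.57, 3.11 and 3.57 FPKM in the control to 10.2, 12.3 and 10.6 at 1000 μg/mL, where no library overlapped the control. jgi_Trias1_334772, whose closest protein is a zinc finger domain protein, was at 8.88, 3.29 and 2.35 FPKM in the control and at 8.59, 13.1 and 9.72 at 1000 μg/mL, with control replicate 1 inside the range of the latter (1.12 ± 0.37 (SE), adjusted p = 0.0298). With 11 libraries jgi_Trias1_93630 and jgi_Trias1_334772 were both called higher (1.47, adjusted p = 0.000225 and 1.58, adjusted p = 0.000224). jgi_Trias1_93630 was then also called higher at 500 μg/mL (1.21, adjusted p = 0.00165). After centring with 12 libraries the fold changes of the 3 genes at 1000 μg/mL were 1.05, 0.94 and 0.86 and all 3 calls were lost. Without 1 library, the call of jgi_Trias1_67910 was also lost when 1000 replicate 1 or 2 was left out (1.13 and 1.23), and that of jgi_Trias1_334772 when control or 1000 replicate 2 or 3 was (0.80 to 1.16). The other 6 tested genes of the class ranged from -0.41 to 0.30, with the lowest adjusted p at 0.142.

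**Figure D2:**
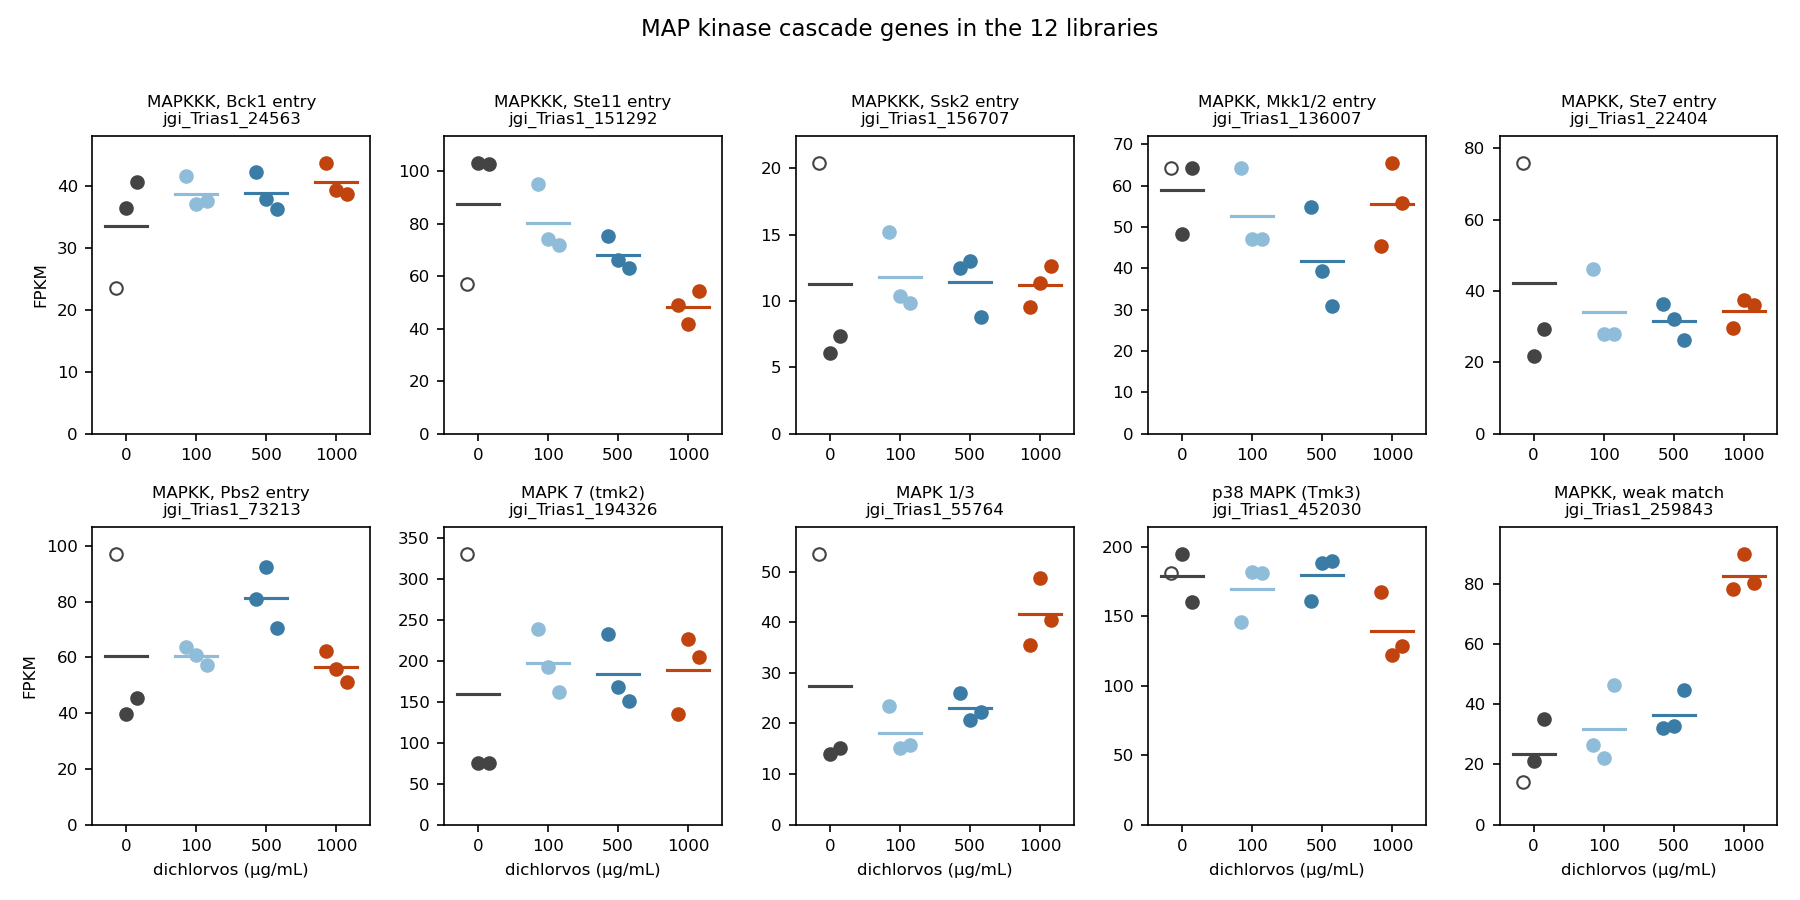
FPKM of 10 MAP kinase cascade genes (vertical axes, each from 0) against the dichlorvos dose in μg/mL, 1 point per library; bars mark group means and the open circle is control replicate 1. In the panel of jgi_Trias1_259843 the 1000 μg/mL libraries lie at 78.2, 89.9 and 80.5 FPKM, above all others, and in that of jgi_Trias1_194326 control replicate 1 lies at 329 FPKM against 74.5 and 75.2 for the other controls.

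Over the cascade as a whole, 5 of 18 tested genes (27.8%) were called higher at 1000 μg/mL and 0 lower by limma with 12 libraries (1 lower at an unadjusted p under 0.05, 0 by the NOISeq rule). Over all genes the shares were 19.2% and 7.81%. With 11 libraries the counts were 6 and 1 (33.3% and 5.56%, against 25.9% and 7.68% of all genes). The median log2 fold change was 0.20 with 12 libraries, and 0.45 with 11, against 0.18 and 0.37 over all genes. The higher calls with 12 libraries were 1 weak MAPKK match and 4 genes of the Ssk2 entry, and no MAPK, MAPKK or MAPKKK gene with an E-value of 0 was among them.

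In the G protein and cAMP pathway, none of the 10 genes was called against the control with 12 libraries. At an unadjusted p under 0.05, 1 was higher and 2 were lower at 1000 μg/mL, and the NOISeq rule gave 0 in both directions. Over all genes, limma called 19.2% higher and 7.81% lower at that dose. With 11 libraries 1 of the 10 genes was called higher there (10%) and 0 lower, against 25.9% and 7.68% of all genes. All 10 genes of the pathway passed the filter. The clearest pattern was a lower level of 2 PKA subunits at 1000 μg/mL than at 100 and 500 μg/mL.

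The 5 subunits of heterotrimeric G proteins, which relay signals from membrane receptors, were not called at any dose with 12 or 11 libraries. The alpha subunit jgi_Trias1_68429, closest to the alpha-1 subunit, was the most abundant at a mean of 197 FPKM and was at 168, 165 and 219 FPKM at 1000 μg/mL against 314, 161 and 199 in the control. The alpha subunit jgi_Trias1_130532 matches Tga3, which T. atroviride needs for mycoparasitism. It was at 123, 21.3 and 22 FPKM in the control and at 20.9 to 51.4 in the dichlorvos libraries. The third alpha subunit, jgi_Trias1_229920, was the steadiest under dichlorvos, at 33.2 to 42.3 FPKM in 9 libraries, while the control held 78.5, 24.9 and 25.5. The fold changes of these 3 at 1000 μg/mL were -0.24, 0.061 and -0.054, with adjusted p of 0.607, 0.948 and 0.924. With 11 libraries they were 0.028, adjusted p = 0.949, 0.88, adjusted p = 0.0405 and 0.48, adjusted p = 0.0144, so the sign of the first and the last turned, and the last 2 passed the p threshold but not the fold threshold. For the beta subunit jgi_Trias1_146950 the value was 0.39, adjusted p = 0.386, and with 11 libraries 0.82, adjusted p = 0.00903, below the fold threshold. The gamma subunit jgi_Trias1_63735 ranged from 122 to 213 FPKM (-0.18, adjusted p = 0.52).

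Adenylate cyclase makes cAMP. The gene with the full match, jgi_Trias1_30883, stood at 8.66, 51.1 and 45.4 FPKM in the control, 28.9, 38.3 and 43.7 at 100, 33, 39.1 and 35.5 at 500 and 45.4, 40.2 and 24.9 at 1000 μg/mL. Control replicate 1 was the lowest of the 12 libraries and control replicate 2 the highest. The fold change at 1000 μg/mL was 0.36, adjusted p = 0.612 with 12 libraries and -0.42, adjusted p = 0.163 with 11, so its sign turned with that library. The weak match jgi_Trias1_132606 (E-value 4e-17) was at 7.67, 2.28 and 2.45 FPKM in the control, 4.2, 2.61 and 3.44 at 100, 4.81, 2.84 and 3.05 at 500 and 7.28, 8.43 and 7.69 at 1000 μg/mL. Its 1000 μg/mL libraries lay above those of 100 and 500 μg/mL. It was not called with 12 libraries (0.93 ± 0.36 (SE), adjusted p = 0.0596) and was called higher with 11 (1.39, adjusted p = 0.000547).

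The regulatory subunit of PKA, jgi_Trias1_126329, was the second most abundant of the 174 genes, with a mean of 789.6 FPKM. Its values were 1243, 653 and 584 FPKM in the control, 1278, 871 and 557 at 100, 1114, 1248 and 652 at 500 and 492, 301 and 480.1 at 1000 μg/mL. All 3 libraries at 1000 μg/mL were below all 9 others. The spread inside the other groups was wide, and the fold change against the control was -0.91 ± 0.37 (SE), adjusted p = 0.0743 with 12 libraries and -0.58, adjusted p = 0.18 with 11. Against 100 μg/mL it was -1.04 ± 0.37 (SE), adjusted p = 0.0593 with 12 libraries, which misses the threshold, and -1.04, adjusted p = 0.0172 with 11, where the gene was called lower. After centring, the fall against the control was also called (-1.17).

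Of the 2 catalytic subunits, jgi_Trias1_275322 followed a rise and fall. It was at 61.8, 78 and 49.5 FPKM in the control, 72.8, 80.9 and 75.3 at 100, 97.2, 120.1 and 94.3 at 500 and 52.5, 30.3 and 38.5 at 1000 μg/mL. The 500 μg/mL libraries were the highest of the 12, and the 1000 μg/mL libraries were all below those at 100 and 500 μg/mL. The F-test over the groups gave an adjusted p of 0.00322. The log2 fold change was 0.73 ± 0.23 (SE), adjusted p = 0.0405 at 500 μg/mL and -0.64 ± 0.23 (SE), adjusted p = 0.043 at 1000 μg/mL, and against 100 μg/mL it was -0.93 ± 0.23 (SE), adjusted p = 0.00984. All 3 passed the p threshold and none the fold threshold. The other catalytic subunit, jgi_Trias1_22492, was at 99.5, 19.4 and 26 FPKM in the control and at 23.1 to 35.7 in the dichlorvos libraries, and was not called (-0.27, adjusted p = 0.684 with 12 libraries, 0.43, adjusted p = 0.131 with 11, a change of sign).

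Phosphodiesterase breaks cAMP down, and 2 such genes were tested as companions of the pathway. jgi_Trias1_369422 was at 131, 207 and 173 FPKM in the control, 199, 195 and 125 at 100, 155, 169 and 119.5 at 500 and 83.3, 68.3 and 58 at 1000 μg/mL. The 1000 μg/mL libraries were the lowest of the 12, and it was called lower (-1.26 ± 0.25 (SE), adjusted p = 0.00148, and -1.44, adjusted p = 0.000248 with 11 libraries). jgi_Trias1_127132 was not called (0.48 ± 0.28 (SE), adjusted p = 0.197). The 2 genes described as G protein-coupled receptors did not pass the filter on low values.

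**Figure D3:**
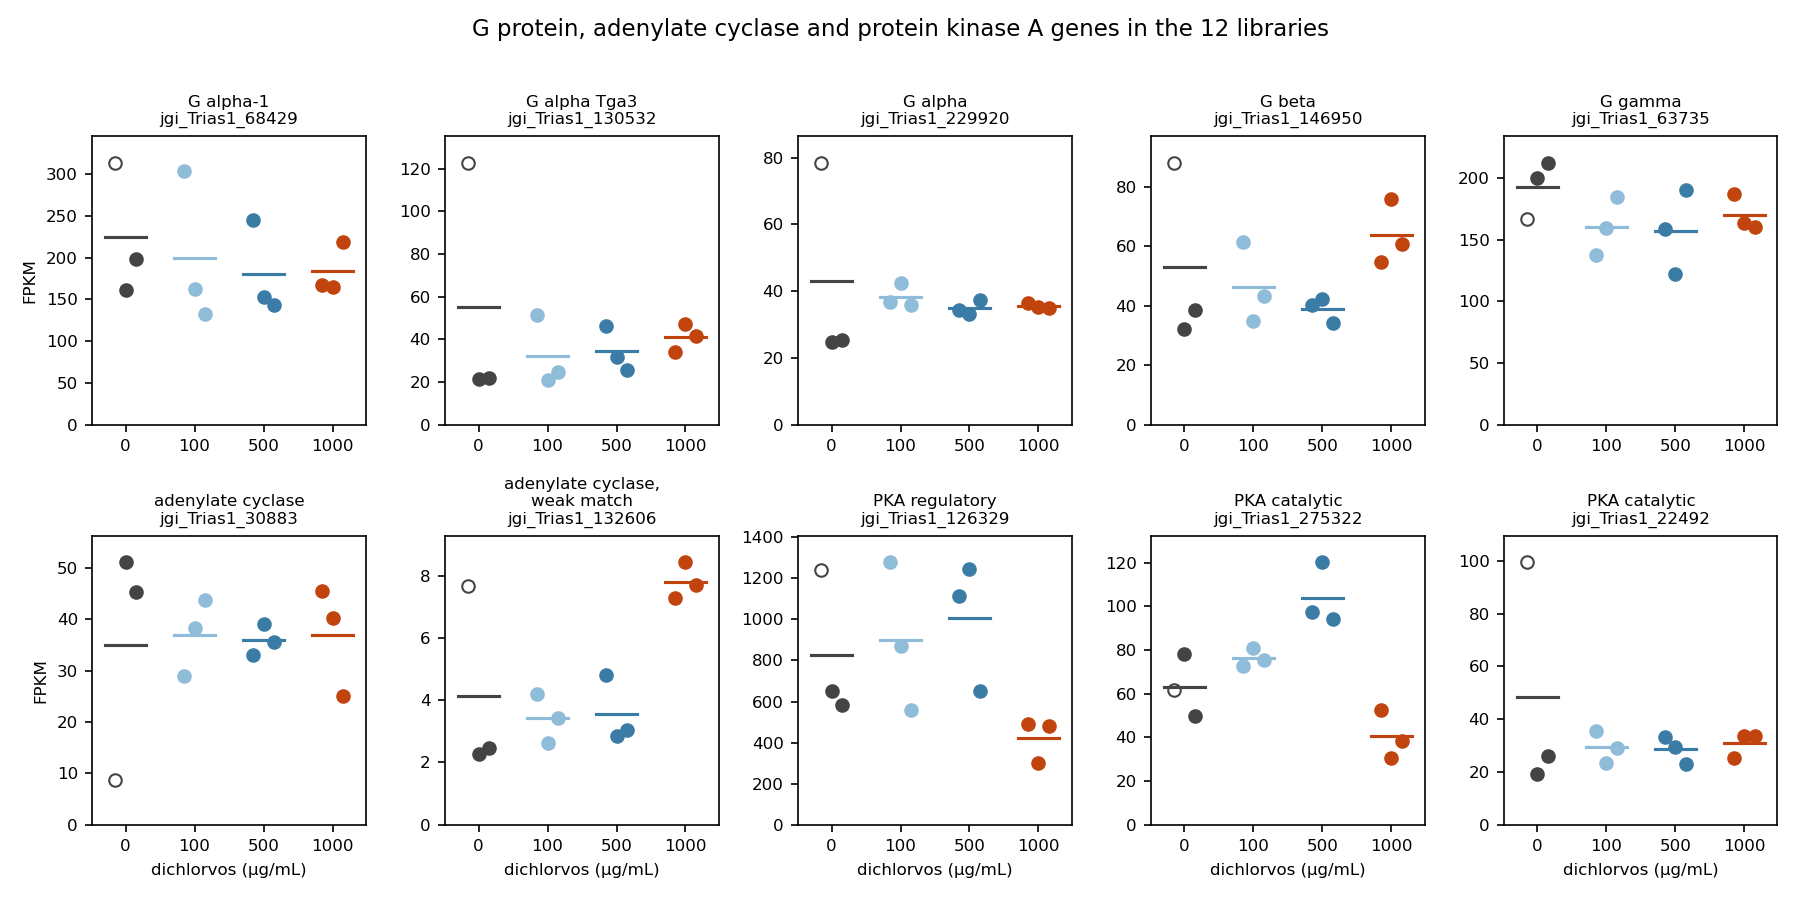
FPKM of the 10 G protein, adenylate cyclase and PKA genes (vertical axes, each from 0) against the dichlorvos dose in μg/mL, 1 point per library; bars mark group means and the open circle is control replicate 1. The PKA regulatory subunit lies at 492, 301 and 480.1 FPKM at 1000 μg/mL, below its 9 other libraries, and the catalytic subunit jgi_Trias1_275322 is highest at 500 μg/mL.

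Two-component histidine kinases are the sensors at the head of the osmotic stress relay and respond to osmotic, oxidative and light signals in fungi. Of 19 genes, 14 passed the filter and 9 were weak matches. With 12 libraries 1 of 14 was called higher at 1000 μg/mL and none lower (4 lower at an unadjusted p under 0.05, 0 by the NOISeq rule), beside 19.2% and 7.81% of all genes. With 11 libraries 2 were higher and 0 lower, with 2 lower at an unadjusted p under 0.05, beside 25.9% and 7.68% of all genes. The median log2 fold change at 1000 μg/mL was -0.28, and -0.047 with 11 libraries, while that of all genes was 0.18 and 0.37.

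The most abundant histidine kinase was jgi_Trias1_128679, which matches NIK-1, the group of hybrid histidine kinases that is the target of dicarboximide and phenylpyrrole fungicides in other fungi. It was at 249.8, 74.5 and 89.2 FPKM in the control, 141, 80.2 and 87 at 100, 125, 94.2 and 71 at 500 and 75.7, 87.7 and 109.7 at 1000 μg/mL. Control replicate 1 was far above all others, and the remaining groups overlapped (-0.39, adjusted p = 0.472 at 1000 μg/mL, 0.14, adjusted p = 0.686 with 11 libraries). jgi_Trias1_145950, described as the sensor TcsA, ranged from 36.8 to 81.6 FPKM (-0.36, adjusted p = 0.333). The gene that was called, jgi_Trias1_58198, is a weak match to the Sln1 entry (E-value 3e-16) with a mean of only 1.47 FPKM. Its values were 0, 0.69 and 0.23 FPKM in the control, 1.67, 2.06 and 1.58 at 100, 0.68, 0.79 and 0.46 at 500 and 2.16, 4 and 3.37 at 1000 μg/mL. It was above all controls at 100 and at 1000 μg/mL, but overlapped them at 500 μg/mL. The mean of the gene reached the 1 FPKM filter only through its 1000 μg/mL libraries. Its test at that dose is thus not independent of the filter. The log2 fold change was 1.68 ± 0.27 (SE), adjusted p = 0.000417 at 1000 μg/mL. At 100 μg/mL it was 1.11 ± 0.27 (SE), adjusted p = 0.0296, the only call at that dose, and with 11 libraries 0.94, adjusted p = 0.0398, which is below the fold threshold. That call was also lost without any 1 of the 100 μg/mL libraries or control replicate 3 (1.04 to 1.16).

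The next pair of histidine kinases was chosen after their values were seen. jgi_Trias1_302313, described as a Nik1-type sensor, was at 26.4, 35.2 and 42.2 FPKM in the control and at 18, 18 and 18.8 at 500 μg/mL, where it passed the p threshold (-0.86, adjusted p = 0.0183) and, with 11 libraries, both thresholds (-1.04, adjusted p = 0.00136). jgi_Trias1_140399, described as TcsA, was not called with 12 libraries at 1000 μg/mL (0.98, adjusted p = 0.0599) and was with 11 (1.43, adjusted p = 0.00113). The 11 genes not listed by the rule for naming genes, these 2 among them, ranged from -0.91 to 0.98 at 1000 μg/mL.

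Downstream of these sensors, 4 response regulators and phosphotransfer proteins were tested, and 1 rose at 1000 μg/mL, beside 19.2% of all genes. jgi_Trias1_26512, the phosphotransfer protein of the Ypd1 type that links sensors and regulators, was at 24.3, 4.36 and 0.43 FPKM in the control, 12, 11.9 and 9.45 at 100, 24.3, 16 and 14.6 at 500 and 17.7, 26.6 and 27.4 at 1000 μg/mL. Control replicate 1 lay within the range of the dichlorvos libraries and the other controls below all of them. The rise was 2.08 ± 0.73 (SE), adjusted p = 0.0393 with 12 libraries and 3.14, adjusted p = 7.33e-05 with 11, where the remaining controls were at 4.36 and 0.43 FPKM. The response regulators of the Skn7 type (jgi_Trias1_133466) and the Ssk1 type (jgi_Trias1_130281 and jgi_Trias1_132370) were not called, with log2 fold changes of -0.49, -0.11 and 0.32 and adjusted p of 0.199, 0.838 and 0.474. With 11 libraries the values were -0.14, adjusted p = 0.571, 0.33, adjusted p = 0.273 and -0.078, adjusted p = 0.797, and the sign of the last 2 turned.

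Of the 123 other kinases, 103 were tested, 11 were called higher at 1000 μg/mL (10.7%) and 7 lower (6.8%). The shares of all genes were 19.2% and 7.81%. With 11 libraries the counts were 21 and 8 (20.4% and 7.77%, against 25.9% and 7.68%). The plot of fold changes shows that all called falls with 12 libraries were in this class. All 7 members called lower at 1000 μg/mL had group means that fell from 100 to 500 to 1000 μg/mL, as did 87.2% of all genes called lower. Of the 17 called higher, 13 had means that rose in that order (76.5%), against 80% of all genes called higher.

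**Figure D4:**
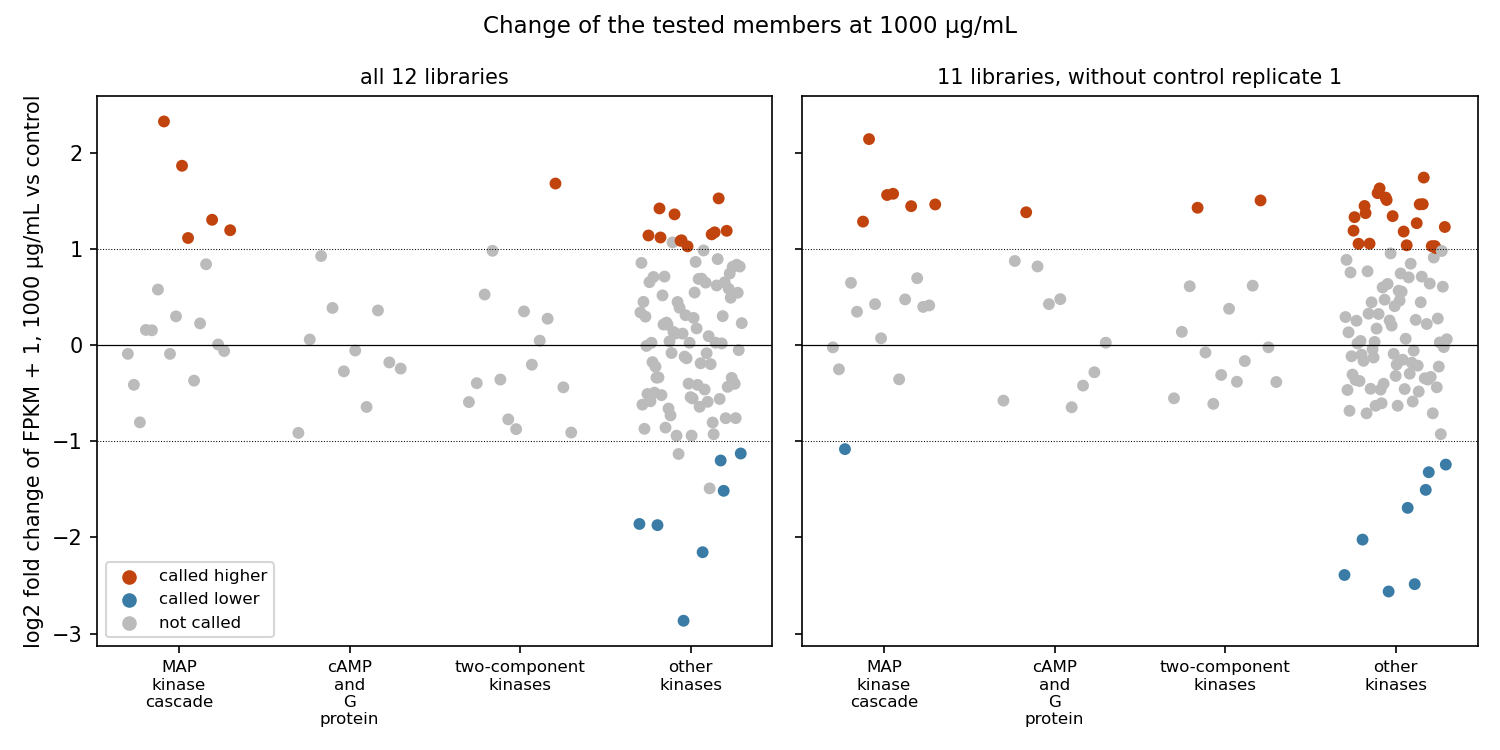
Log2 fold change of FPKM + 1 at 1000 μg/mL against the control (vertical axis) for each of the 145 tested genes, by class, with all 12 libraries (left) and without control replicate 1 (right); orange points were called higher, blue lower and grey not called, and dotted lines mark the fold threshold of 1. On the left, 17 points are orange and 7 blue, and all 7 blue points are other kinases.

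jgi_Trias1_183082 is described as the carbon catabolite-derepressing kinase, the Snf1 kinase that yeast needs to use carbon sources other than glucose. It was at 34.1, 17.7 and 20.4 FPKM in the control, 29.1, 25.5 and 29.1 at 100, 49.5, 41 and 37.3 at 500 and 51.2, 66 and 67.4 at 1000 μg/mL. The 1000 μg/mL libraries were above all others, and the rise of 1.36 ± 0.24 (SE), adjusted p = 0.000853 was kept in all 19 alternative limma fits. It was not called by the NOISeq rule, which gave 0 higher at that dose. The other gene of this description, jgi_Trias1_127433, has an E-value of 0, against 2e-108 for the first, and moved down by less than the fold threshold (-0.62, adjusted p = 0.0144). jgi_Trias1_67010, a kinase of unspecified type and the most abundant of the rises with a mean of 258 FPKM, was at 127, 197 and 160.4 FPKM in the control, 189.8, 180.3 and 188 at 100, 297, 313 and 341 at 500 and 419.6, 388 and 299 at 1000 μg/mL. All 1000 μg/mL libraries were above all control and 100 μg/mL libraries (1.19 ± 0.19 (SE), adjusted p = 0.000412).

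The pair of genes described as regulatory subunit 4 of phosphoinositide 3-kinase, known as Vps15 in yeast, where it acts in vacuolar sorting and autophagy, moved in opposite directions. jgi_Trias1_54884 (E-value 0) rose. It was at 10.9, 5.23 and 5.72 FPKM in the control, 7.06, 5.68 and 7.79 at 100, 11.17, 10 and 9.55 at 500 and 16.5, 18 and 16.2 at 1000 μg/mL. The fold change was 1.18 ± 0.27 (SE), adjusted p = 0.00421. After centring the call was lost (0.92), as was that of jgi_Trias1_67010 (0.93). jgi_Trias1_202588 (E-value 4e-144) had the largest fall of all 145 genes. Its values were 39.8, 21.6 and 19.8 FPKM in the control, 17.5, 11.4 and 10.2 at 100, 9.11, 6.76 and 7.18 at 500 and 2.47, 3.36 and 2.26 at 1000 μg/mL. Each dose lay wholly below the dose before it, with no overlap between neighbouring groups. The fold change was -1.63 ± 0.31 (SE), adjusted p = 0.00259 at 500 μg/mL and -2.87 ± 0.31 (SE), adjusted p = 1.45e-05 at 1000 μg/mL. Against 100 μg/mL it was -1.90 ± 0.31 (SE), adjusted p = 0.000701, and these 3 calls were kept in all 19 alternative limma fits. The call at 500 μg/mL was not made by the NOISeq rule, which gave 0 lower at that dose.

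Genes described as serine/threonine kinase 16 also split. Of 8 such genes 7 were tested, and 2 were called lower and 1 higher at 1000 μg/mL, beside 7.81% and 19.2% of all genes. jgi_Trias1_40879 was at 118, 45.1 and 44.1 FPKM in the control, 45.3, 36.9 and 29.6 at 100, 28.2, 18.2 and 12.23 at 500 and 13, 12.7 and 13.7 at 1000 μg/mL. Its log2 fold change was -2.15 ± 0.37 (SE), adjusted p = 0.000694, and all 1000 μg/mL libraries were far below every control. jgi_Trias1_64178 fell (-1.51 ± 0.34 (SE), adjusted p = 0.00378) from 7.95, 5.06 and 4.91 FPKM in the control to 1.57, 1.73 and 0.96. jgi_Trias1_142755 rose (1.12 ± 0.31 (SE), adjusted p = 0.0118) from 2.37, 0.65 and 1.4 FPKM to 3.77, 4.57 and 4.19, and the call was lost after centring, where the value was 0.86, and without control replicate 2 (also 0.86). That of jgi_Trias1_64178 at 500 μg/mL was lost without 500 replicate 2 or 3 (-1.16 and -1.14). A further gene of this description, jgi_Trias1_50902, named after its values were seen, was at 4.12, 30.5 and 51.6 FPKM in the control, 31.7, 28.8 and 33.4 at 100, 9.32, 11 and 22.9 at 500 and 6.74, 6.62 and 5.51 at 1000 μg/mL. It was called lower against 100 μg/mL (-2.15 ± 0.65 (SE), adjusted p = 0.0274) but not against the control with 12 libraries (-1.49, adjusted p = 0.089), where control replicate 1 was below all the 1000 μg/mL libraries.

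jgi_Trias1_141610, described as the DNA damage checkpoint kinase Chk2 but a weak match (E-value 7e-11), was at 3.37, 3.28 and 3.01 FPKM in the control, 3.45, 5.58 and 5.72 at 100, 6.27, 4.51 and 4.35 at 500 and 9.76, 12.9 and 8.71 at 1000 μg/mL. Its 1000 μg/mL libraries were above all others (1.43 ± 0.26 (SE), adjusted p = 0.00102). Of 4 genes described as Chk2, 3 were tested and 1 was called higher at 1000 μg/mL, beside 19.2% of all genes. jgi_Trias1_126803 of this description, with an E-value of 0 and a mean of 147 FPKM, passed only the p threshold (0.86, adjusted p = 0.00283). jgi_Trias1_134500, described as haspin, which phosphorylates histone H3 in mitosis, was at 1.15, 0.84 and 1.04 FPKM in the control and 3.34, 4.32 and 2.77 at 1000 μg/mL (1.14 ± 0.25 (SE), adjusted p = 0.00333). After centring the value was 0.88 and the call was lost. Named after their values were seen, jgi_Trias1_28819, described as a checkpoint kinase of the Bub1 type, was at 4.36, 1.84 and 1.73 and 6.05, 6.41 and 5.78 FPKM (1.03 ± 0.28 (SE), adjusted p = 0.0126), and jgi_Trias1_192907, described as a cyclin-dependent kinase, was at 6.37, 1.54 and 2.29 and 6.43, 8.54 and 7.36 FPKM (1.09 ± 0.40 (SE), adjusted p = 0.0463).

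The other rises were jgi_Trias1_53508, a weak match to a kinase that activates calmodulin-dependent kinases (1.16 ± 0.27 (SE), adjusted p = 0.00485), jgi_Trias1_193625, a kinase of unspecified type (1.09 ± 0.33 (SE), adjusted p = 0.0207), and jgi_Trias1_61113. The last is described as a catalytic subunit of casein kinase II and was listed at 0 in 1 control. It was at 0.72, 0 and 0.2 FPKM in the control and 1.96, 3.65 and 2.61 at 1000 μg/mL (1.53 ± 0.32 (SE), adjusted p = 0.00268). Its mean passed the filter only through the 1000 μg/mL libraries, so this call is not independent of the filter. The other gene described as a casein kinase II catalytic subunit, jgi_Trias1_139998, has an E-value of 0 and a mean of 81.3 FPKM. It was not called (-0.34, adjusted p = 0.279 with 12 libraries, -0.097, adjusted p = 0.681 with 11). The calls of jgi_Trias1_53508 and jgi_Trias1_193625 were lost after centring, where the values were 0.90 and 0.83. The latter was also lost without control replicate 2 or 3 or 1000 replicate 2 or 3 (0.74 to 1.09).

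The other falls were of mixed annotation. jgi_Trias1_140683, a weak match to an animal kinase of heart muscle, was at 34.4, 48.2 and 46.6 FPKM in the control, 61.6, 36.2 and 23.5 at 100, 33.2, 26.2 and 21 at 500 and 14.8, 7.63 and 11.4 at 1000 μg/mL. Its log2 fold change was -1.87 ± 0.34 (SE), adjusted p = 0.000943, with all 1000 μg/mL libraries below every other library. jgi_Trias1_102388, described as a death-associated kinase but closest to an ankyrin repeat protein, was at 33.5, 91.6 and 116 FPKM in the control, 71, 54.5 and 70 at 100, 39.2, 42.9 and 78.1 at 500 and 15.6, 21.5 and 20 at 1000 μg/mL. Its fall was -1.86 ± 0.40 (SE), adjusted p = 0.00278 with 12 libraries and -2.39, adjusted p = 1.42e-05 with 11. jgi_Trias1_63484, a dual-specificity kinase of the CMGC group with an E-value of 0, stepped down with the dose. It was at 123, 223 and 242 FPKM in the control, 189, 174 and 145 at 100, 124, 120.2 and 116 at 500 and 86.2, 81.3 and 76.6 at 1000 μg/mL. Its fall was -1.20 ± 0.23 (SE), adjusted p = 0.00148. jgi_Trias1_89209, described as a calmodulin-dependent kinase, fell from 2.73, 3.27 and 4.27 FPKM in the control to 0.93, 1.25 and 0.86 (-1.13 ± 0.30 (SE), adjusted p = 0.00984), a call lost without control replicate 3 (-0.99).

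**Figure D5:**
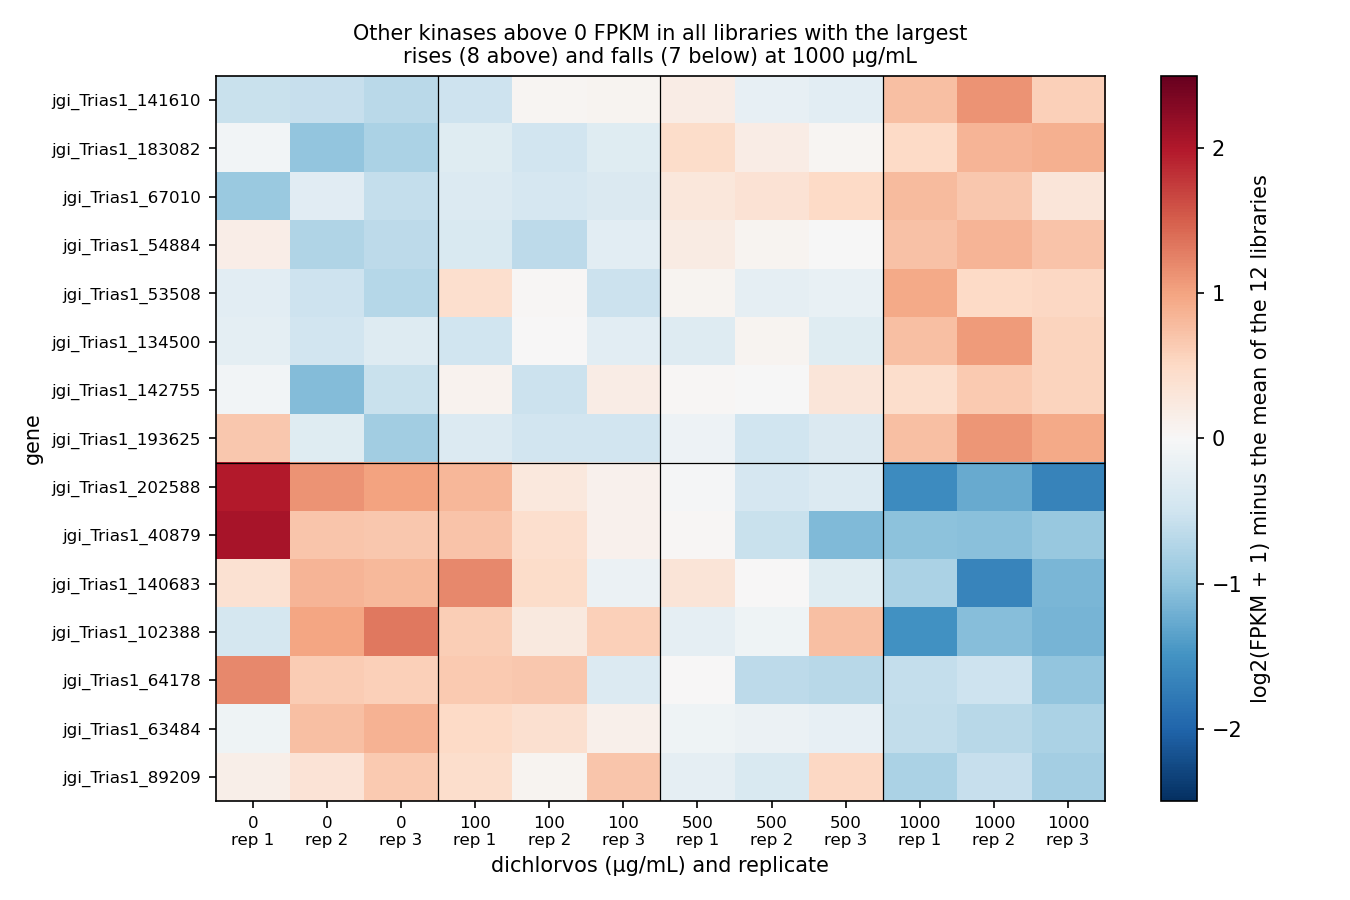
Log2(FPKM + 1) of 15 other kinases in each library, as the difference from the mean of the gene over the 12 libraries (colour scale), with the libraries by dichlorvos dose in μg/mL and replicate on the horizontal axis and 1 gene per row. Among called genes above 0 FPKM in all libraries, the 8 largest rises are above the line and the 7 falls below it, and jgi_Trias1_202588 steps from 39.8, 21.6 and 19.8 FPKM in the control to 2.47, 3.36 and 2.26 at 1000 μg/mL.

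The most abundant other kinases were the casein kinase I genes. jgi_Trias1_30936, the homolog of yeast Hrr25, had the highest mean of all 174 genes at 809 FPKM. It was at 847, 972 and 1010.0 FPKM in the control, 915, 843 and 792 at 100, 836, 824 and 749.7 at 500 and 655, 602 and 666 at 1000 μg/mL. All 1000 μg/mL libraries were below all others, and the change of -0.55 ± 0.16 (SE), adjusted p = 0.0171 passed the p threshold but not the fold threshold. jgi_Trias1_144813 behaved alike in sign (-0.52, adjusted p = 0.0629). The scaffold protein jgi_Trias1_127947, closest to Cpc2 and known as RACK1 in animals, is described as a beta subunit-like protein and sits on the ribosome. It was at 685, 463 and 464 FPKM in the control, 287, 303 and 299 at 100, 311, 243 and 202 at 500 and 225, 317 and 338 at 1000 μg/mL. Every dichlorvos library was below every control. The gene was called lower at 500 μg/mL (-1.09 ± 0.23 (SE), adjusted p = 0.00498) with 12 libraries and neither with 11 (-0.90, adjusted p = 0.00426) nor without 500 replicate 3 (-0.94), while the log2 fold changes at 100 and 1000 μg/mL were -0.83, adjusted p = 0.0484 and -0.87, adjusted p = 0.00937. After centring it was also called lower at 1000 μg/mL (-1.13). The ribosomal protein genes, whose sums are given above, were also lower in every dichlorvos library than in every control, and their part in this result was not tested. jgi_Trias1_133346, a cyclin-dependent kinase named after its values were seen, was likewise called lower only at 500 μg/mL (-1.09 ± 0.26 (SE), adjusted p = 0.0112) and not with 11 libraries (-0.89, adjusted p = 0.00947).

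Among companion genes, 53 of 61 protein phosphatases, which reverse phosphorylation, were tested. At 1000 μg/mL 7 were called higher and 2 lower, against the 19.2% and 7.81% of all genes. With 11 libraries they were 11 and 2, against 25.9% and 7.68%. The largest rise was that of jgi_Trias1_74032, described as a protein-tyrosine phosphatase. It was at 0.58, 1.68 and 2.15 FPKM in the control, 1.41, 3.62 and 3.08 at 100, 4.3, 4.29 and 6.58 at 500 and 20.5, 21.9 and 15.4 at 1000 μg/mL, with no overlap between 1000 μg/mL and any other group (3.08 ± 0.34 (SE), adjusted p = 1.82e-05). The largest fall was that of jgi_Trias1_48024, described as the tyrosine phosphatase Siw14, at 73.3, 126 and 131 FPKM in the control and 29.8, 37.4 and 31.6 at 1000 μg/mL (-1.67 ± 0.24 (SE), adjusted p = 0.000152). None of the 5 calmodulin and calcineurin genes was called at 1000 μg/mL with 12 libraries by limma, by the NOISeq rule or at an unadjusted p under 0.05 (0 in each case). With 11 libraries 2 of them were called higher, beside 25.9% of all genes. Of the pair of 14-3-3 genes, whose proteins bind phosphorylated targets, 0 were called by limma, by the NOISeq rule or at an unadjusted p under 0.05.

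The strength of the annotation and the calls can be set side by side. Among 76 tested genes with an E-value of 0, the test at 1000 μg/mL called 4 higher and 1 lower with 12 libraries, and 14 and 2 with 11. Of 29 weak matches, 7 were called higher and 2 lower with either set. Between these lay 40 genes, of which 6 were higher and 4 lower with 12 libraries and 9 and 5 with 11. Of all genes, 19.2% and 7.81% were called with 12 libraries and 25.9% and 7.68% with 11. The median level was 45.1 FPKM in the first set and 6.73 FPKM in the second.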

How the data were processed

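The authors deposited FPKM values of 11647 genes for 12 libraries with KEGG, protein database and other annotations; BWA, Bowtie and RSEM stand in the submitters' processing notes with no version, and the sources used here do not give further settings. FPKM are divided by gene length and library size, so read counts and counting intervals were not available, and precision is limited by 3 libraries per group. Libraries were grouped by their labels, and 0 value columns lacked a sample. Gene identifiers were used as deposited, and 0 matched the separate RefSeq gene list. Sequences were not used here.

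limma 3.58.1 (R 4.3.3) was fitted to log2(FPKM + 1) after removing genes below a mean of 1 FPKM (8916 were kept), with an intensity trend and 4 groups in 1 fit. Calls needed a Benjamini-Hochberg adjusted p under 0.05 over all genes tested and an absolute log2 fold change above 1; the F-test used the adjusted p alone. The smallest two-sided p of an exact permutation test at this group size is 0.1. On simulated data for 1000 μg/mL against the control, with 200 of 8916 genes raised by 2 on the log2 scale, 169 were recovered with 10 false calls. The raised genes were drawn only from those above a floor on the mean level, so lower genes were not covered. Each simulated gene had the same spread in all groups, without an outlying control library as in the data. NOISeq, the method the study used, was recoded with its limits (probability over 0.8, log2 ratio over 1 in size, 0 set to 0.01) in Python 3.11.15 with pandas 2.3.3, numba 0.67.0 and numpy 2.4.6, and figures used matplotlib 3.10.9. Its probability also compares the absolute difference in FPKM with that of replicate pairs over all genes, which holds back genes of low FPKM.

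Alternatives were a pseudocount of 0.1, no filter or a mean of at least 5 FPKM, TPM, centring on the library median, a replicate block, each library left out, control replicate 1 left out with centring, the adjusted p alone and the NOISeq rule. The NOISeq rule with 11 libraries was added after the data were seen. The alternatives counted for single genes are the limma fits among these, without the adjusted p alone and the NOISeq rule.

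Named genes were all MAPK, MAPKK, PKA, adenylate cyclase and G protein genes. Of the MAPKKK and histidine kinases they were those called in any comparison, up to 6, and the 2 with the highest mean. Of other kinases they were the 8 largest rises and falls called at 1000 μg/mL with FPKM above 0 in all libraries, and the 3 with the highest mean. Of each companion list they were the largest called rise and fall. The Bck1- and Ssk2-type MAPKKK, jgi_Trias1_127433, jgi_Trias1_61113, the uncalled phosphodiesterase and response regulators, and the genes so marked in the text were named after their values were seen. So were jgi_Trias1_126803 and jgi_Trias1_139998. The labels do not say what the replicate numbers share; deviations of same-numbered control and 100 μg/mL libraries correlated at 0.50, 0.17 and 0.43. Members and lists were chosen with earlier results of these data known. A list of conidiation genes matched 0 genes, and the result of 1 further companion list is not reported here.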

Additional observations from a re-analysis of the deposited data

How the results depend on the processing

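Leaving out 1 library at a time moved the counts of kinase and signalling genes called. The count called higher lay between 0 and 2 at 100 μg/mL, 1 and 11 at 500 μg/mL, 13 and 30 at 1000 μg/mL, and 6 and 13 at 1000 against 100 μg/mL. The count called lower lay between 3 and 7, 7 and 11, and 4 and 10 at 500 μg/mL, 1000 μg/mL and 1000 against 100 μg/mL, and it was 0 at 100 μg/mL throughout. The F-test count lay between 22 and 76. The highest values at 500 and 1000 μg/mL higher and in the F-test came without control replicate 1, the 11 lower at 1000 μg/mL without control replicate 2, the 3 lower at 500 μg/mL without 500 replicate 2 or 3, and the 4 and 5 lower at 1000 against 100 μg/mL without 100 replicate 1 and without 1000 replicate 2 or 3. At 500 μg/mL 1 gene was higher without 500 replicate 2 or 1000 replicate 3. The count at 100 μg/mL went to 0 without any 1 of the 100 replicates or control replicate 3, and without control replicate 1 the call of jgi_Trias1_58198 was lost as well (0.94) while another gene was called. The cause was not tested.

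Centring on the library median gave 0 higher and 1 lower at 100 μg/mL, 1 higher at 500 μg/mL, 6 higher and 20 lower at 1000 μg/mL, 5 higher at 1000 against 100 μg/mL and 47 in the F-test. Centring without control replicate 1 gave 2 lower at 100 μg/mL, 13 lower at 500 μg/mL, 9 higher and 21 lower at 1000 μg/mL, 5 higher at 1000 against 100 μg/mL and 80 in the F-test. A mean of at least 5 FPKM, under which fewer genes were tested, gave 0 higher at 100 and at 500 μg/mL, 11 higher at 1000 μg/mL and 4 higher at 1000 against 100 μg/mL. A pseudocount of 0.1 gave 2 higher at 100 μg/mL. The adjusted p alone gave 1 lower at 100 μg/mL, 7 higher at 500 μg/mL, 19 lower at 1000 μg/mL and 15 higher at 1000 against 100 μg/mL. The NOISeq rule gave 0 higher at 100 μg/mL, 0 higher and 0 lower at 500 μg/mL, 0 higher and 1 lower at 1000 μg/mL, and 1 higher and 3 lower at 1000 against 100 μg/mL. With 11 libraries, added after the data were seen, it gave 0 lower at 500 μg/mL and 5 higher at 1000 μg/mL. Shares of all genes are available only for the main fit, without control replicate 1, and for centring with 12 libraries. Counts of kinase and signalling genes under the other settings therefore cannot be set against all genes.

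Deviations of same-numbered libraries from their group means correlated at -0.32 to 0.50 over 18 pairs, with 7 of them over 0.1. All 3 pairs of control and 100 μg/mL libraries were over 0.1 (0.50, 0.17 and 0.43), which was not so for the other pairs of groups. With the number as a replicate block, 1 gene was higher and 0 lower at 100 μg/mL, as without it, 1 was higher at 500 μg/mL, and no other count moved by over 1.5 times.

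Of 40 called values of named genes, 40 kept the call with a pseudocount of 0.1, the block or TPM, 39 without a filter, 28 after centring and 37 without control replicate 1, and none turned its sign. The calls lost by leaving out 1 library are given with each gene, save those at 1000 against 100 μg/mL, where the values then were 0.91 and 0.92 for jgi_Trias1_134500, -1.27 and -1.40 for jgi_Trias1_40879, -0.96 and -0.999 for jgi_Trias1_63484, -0.996 for jgi_Trias1_89209 and -0.86 to -1.12 for jgi_Trias1_64178.

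Depth is not known from FPKM, and genes near 1 FPKM rest on few fragments.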

Other observations

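Without control replicate 1, 16 further genes were called at 1000 μg/mL against the control, 14 higher and 2 lower. Control replicate 1 lay above both other controls in all 14 of the higher genes. That is largely set by the selection, since leaving out a high control raises the fold change. These 14 genes rose by 1.01 to 1.58 on the log2 scale with 11 libraries. Beside the MAP kinases, the weak adenylate cyclase match and the histidine kinase given above, they included the genes below, picked from them after their values were seen. jgi_Trias1_138849, described as the autophagy kinase Atg1, was at 117, 53.1 and 60.4 FPKM in the control, 93.5, 74.9 and 70 at 100, 84.8, 90.1 and 88 at 500 and 113, 134 and 111 at 1000 μg/mL. It lay at 1.06, adjusted p = 0.00015 with 11 libraries and at 0.71, adjusted p = 0.0458 with 12. jgi_Trias1_60966, described as the checkpoint kinase Chk1, was at 9.89, 1.5 and 3.4 FPKM in the control and 5.96, 10.2 and 8.92 at 1000 μg/mL (1.47, adjusted p = 0.0025 with 11 libraries, 0.90, adjusted p = 0.141 with 12). jgi_Trias1_69336, described as the mitosis inhibitor Swe1, gave 1.01, adjusted p = 0.0159 and 0.50, adjusted p = 0.386, and jgi_Trias1_134718, the regulatory subunit of the replication kinase Cdc7, gave 1.33, adjusted p = 0.00199 and 0.66, adjusted p = 0.308.

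Some kinases known as central regulators in yeast, also named after their values were seen, were not called at 1000 μg/mL with either set of libraries. jgi_Trias1_67815, described as eukaryotic translation initiation factor 2-alpha kinase 4, the kinase called Gcn2 in yeast, gave 0.59, adjusted p = 0.126 with 12 libraries and 0.91, adjusted p = 0.00213 with 11, where it passed the p threshold but not the fold threshold. jgi_Trias1_183262, described as the nutrient-response kinase Rim15, gave 0.12, adjusted p = 0.853 and -0.46, adjusted p = 0.161. With 11 libraries it was called lower at 500 μg/mL (-1.19, adjusted p = 0.00396), and at 100 μg/mL it passed only the p threshold (-0.98, adjusted p = 0.0255). jgi_Trias1_48308, described as Ire1, the sensor of unfolded proteins in the endoplasmic reticulum, gave 0.10, adjusted p = 0.707 and -0.055, adjusted p = 0.758. Of the 2 genes described as Ire1, 0 were called at 1000 μg/mL against the control with 12 libraries, and 1 was called higher against 100 μg/mL. Of all genes, 19.2% were called higher and 7.81% lower in the first comparison, and 13% higher in the second. jgi_Trias1_381593, described as glycogen synthase kinase 3, passed only the p threshold with both sets (-0.64, adjusted p = 0.0184 and -0.45, adjusted p = 0.0214).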
